A study of Mus musculus with 18 samples.

Results

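Smoc1, Sfrp4, Timp2 and Hmcn2 are 4 genes of extracellular proteins among the 24 genes for which the authors deposited histone mark scores around transcription start sites in the mouse cerebellum. They were taken from that table by the names smoc1, sfrp4, timp2 and hmcn2, and all 4 were found. Smoc1 encodes a secreted calcium-binding protein of the SPARC family that is found in basement membranes, and Sfrp4 encodes a secreted frizzled-related protein that binds Wnt ligands outside the cell. Timp2 encodes a secreted inhibitor of matrix metalloproteinases, and Hmcn2 encodes hemicentin 2, a very large extracellular protein of the immunoglobulin superfamily. They share an extracellular place of action but belong to separate gene families.

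Chd4 is the ATPase of the NuRD complex, which couples chromatin remodeling to histone deacetylation. Trimethylation of lysine 4 of histone H3 (H3K4me3) marks the start sites of active genes, often within CG-rich sequence, while acetylation of lysines 9 and 14 (H3K9/14ac) and of lysine 27 (H3K27ac) marks active promoters and, for H3K27ac, also enhancers. In the first postnatal weeks the mouse cerebellum still produces granule neurons, its most numerous cell type, which mature by the fourth week.

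The groups were wild-type (WT) cerebella at postnatal day 6 (P6), WT cerebella at postnatal day 22 (P22) and cerebella of Chd4 conditional knockout (cKO) mice at P22. Each group had 2 libraries for each mark, except that H3K27ac was measured at P22 alone, which gave 16 libraries. The sources used here name neither the Cre driver nor the alleles of the WT mice. Nor do the labels tie the libraries to animals, so p-values measure only how far these libraries spread, and that spread may be technical. Chromatin came from whole cerebella, so a change in the signal per cell and a change in the share of a cell type cannot be told apart.

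Scores in the table ran from -0.82 to 67. Their unit and zero are not stated, so ratios of scores depend on that zero, depth is unknown, and levels were compared between genes only within a library, with no correction for the width of a promoter. How the 24 genes were chosen is not given, and none of 18 cell type markers, nor Chd4, is among them, so neither the tissue nor the genotype was checked. In the cKO, replicate 2 was above replicate 1 by a median of 0.68 for H3K4me3, 0.48 for H3K9/14ac and 0.28 for H3K27ac on the log2(score + 2) scale. The part of these shifts in the results was not tested.

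The RefSeq promoter table (build GRCm38.p6) holds windows for Timp2 and Hmcn2, the members with the highest and the lowest H3K4me3 at P22. They are shown 5′ to 3′ on the strand of the gene, with each CG dinucleotide, the methylation target that is dense in CpG islands, in capitals. Timp2 lies at chr11:118355362-118355661 on the minus strand, and the window runs from 250 bases before its start to 50 bases into the transcript. Hmcn2 lies at chr2:31314082-31314381 on the plus strand.

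Timp2: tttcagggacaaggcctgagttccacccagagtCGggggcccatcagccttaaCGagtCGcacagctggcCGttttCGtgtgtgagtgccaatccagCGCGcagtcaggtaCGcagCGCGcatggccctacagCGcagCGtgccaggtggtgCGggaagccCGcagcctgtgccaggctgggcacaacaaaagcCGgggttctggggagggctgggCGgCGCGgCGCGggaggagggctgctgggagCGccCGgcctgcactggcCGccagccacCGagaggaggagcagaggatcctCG

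Hmcn2: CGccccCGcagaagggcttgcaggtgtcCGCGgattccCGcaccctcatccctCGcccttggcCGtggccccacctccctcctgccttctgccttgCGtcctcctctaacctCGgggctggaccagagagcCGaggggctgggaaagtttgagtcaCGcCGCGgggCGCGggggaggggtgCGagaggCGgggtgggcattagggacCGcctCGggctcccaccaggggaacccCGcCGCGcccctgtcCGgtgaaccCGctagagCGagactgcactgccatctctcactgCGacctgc

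Both windows were rich in CG. Timp2 had 25 CG dinucleotides and a GC content of 68.7%, and Hmcn2 had 26 and 70.7%, against medians of 7 and 52.7% over all 32851 windows of 300 bases in that table. More CG than in 81.6% of all windows was found in Timp2, and more than in 83.1% in Hmcn2. On both strands, the E-box letters CANNTG matched at 2 places in Timp2 and 1 in Hmcn2 (72.3% of all windows hold a match), and GGGCGG, which itself contains a CG, at 1 place in Timp2 and 0 in Hmcn2 (35.7%). CCAAT matched at 1 place in Timp2 and 0 in Hmcn2 (37.4%), and TATAAA in neither (13.6%). No match overlapped another of these 4 motifs.

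The scores belong to positions of the authors' table, which are taken to be in mm9 because the submitters' processing notes name that build. The table places Smoc1 on chromosome 12 at 82127818, Sfrp4 on chromosome 13 at 19715052, Timp2 on chromosome 11 at 118216725 and Hmcn2 on chromosome 2 at 31235723. Whether these positions are the same start sites as in RefSeq GRCm38 was not checked across builds, which matters for Hmcn2, a long gene. Of the 10 table genes with a single RefSeq window, Hmcn2 and Timp2 ranked 1 and 2 by CG count, but 9 and 1 by mean H3K4me3 in WT at P22.

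In WT cerebellum at P22, Timp2 carried the strongest signal of the 4 genes in every library of all 3 marks. H3K4me3 at Timp2 scored 13.57 and 27.82 in replicates 1 and 2, which ranked it 2 and 1 of the 23 promoters with values in all libraries. H3K9/14ac at Timp2 was 6.45 and 9.18, rank 2 in both libraries. H3K27ac was 11.41 and 6.84, ranks 2 and 3. Smoc1 and Sfrp4 held middle ranks, from 6 to 13, in every mark. Their order could not be told apart in H3K4me3, where Smoc1 scored 8.20 and 11.67 and Sfrp4 7.33 and 13.57, while Sfrp4 lay above Smoc1 within each replicate number in both acetylation marks.

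The ranks of Hmcn2 differed between the marks. H3K4me3 at its listed position was below 0 in all 6 libraries of that mark, with ranks of 17 to 23 of 23. H3K27ac in WT at P22 was 3.51 and 4.41, ranks 12 and 7. In replicate 1 that was below Smoc1 and Sfrp4 (3.75 and 5.30), and in replicate 2 above both (2.37 and 3.43). H3K9/14ac in WT at P22 was 1.37 and 1.14, ranks 13 and 17.

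**Figure D1:**
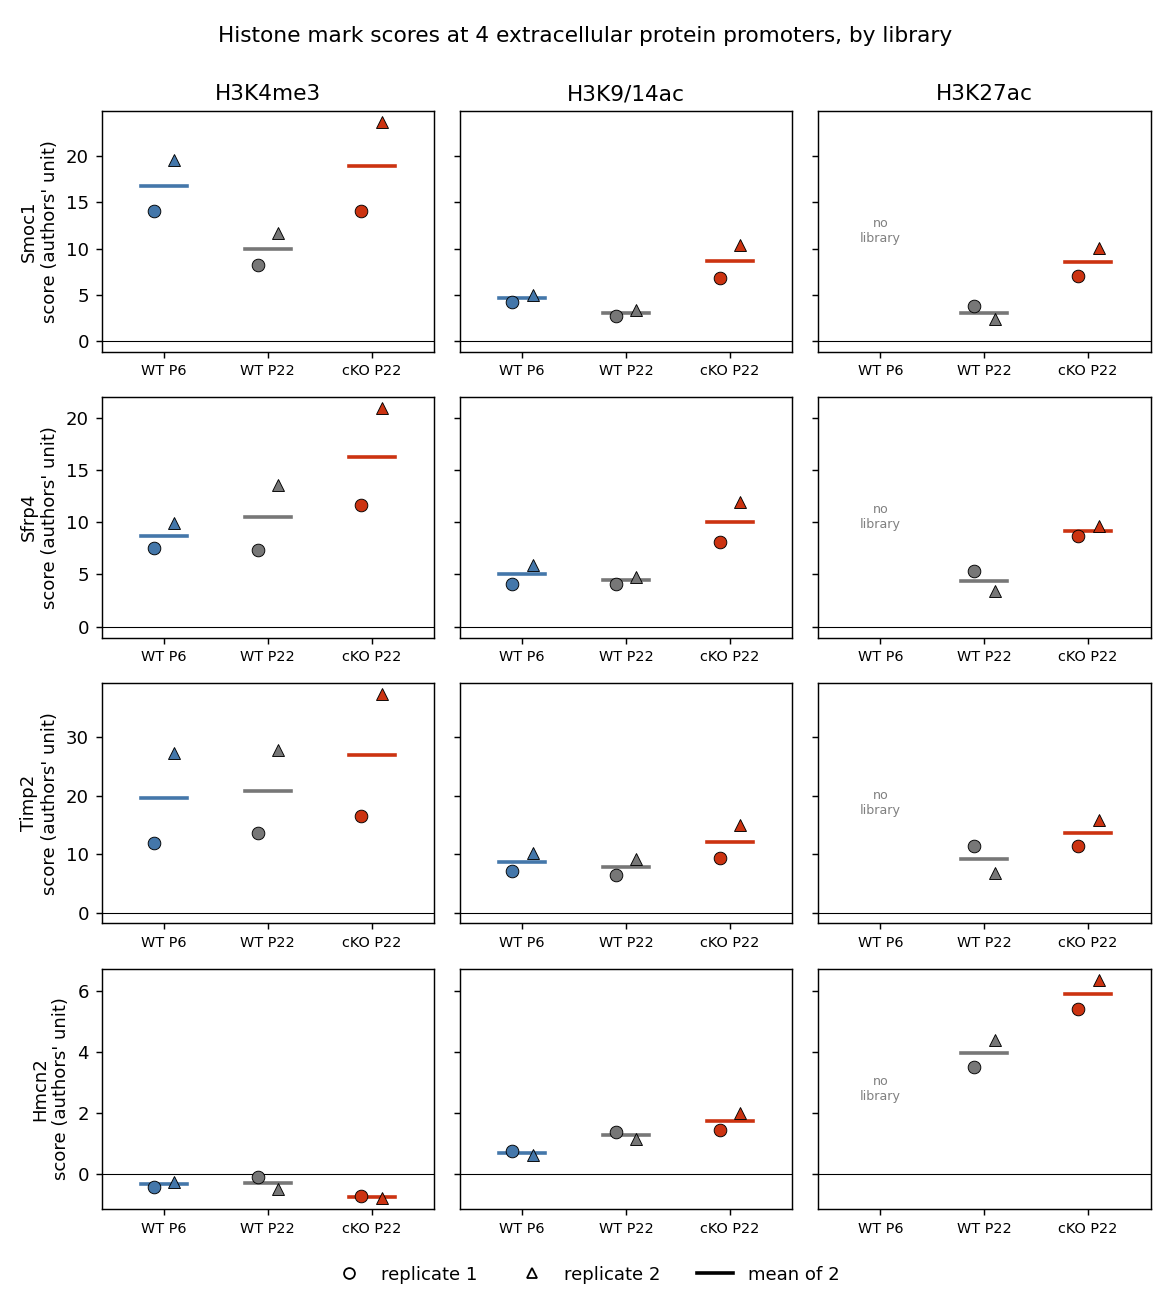
Score of each library (vertical axis, the authors' unit, separate scale for each gene) in WT P6, WT P22 and cKO P22, with 1 row per gene and 1 column per mark. Circles are replicate 1, triangles replicate 2 and bars the mean of 2. Timp2 spreads widely between replicates in H3K4me3, and Hmcn2 lies below 0 in that mark in all 6 libraries.

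The comparison of genotypes at P22 asks how these promoters differ when Chd4 is lost. Of the members tested, 0 of 3 passed in H3K4me3, 2 of 4 rose in H3K9/14ac (Smoc1 and Sfrp4) and 3 of 4 rose in H3K27ac (Smoc1, Sfrp4 and Timp2), while none was called lower (limma, Benjamini-Hochberg adjusted over all promoters tested). Over the whole table, 50% of tested promoters were called higher for H3K4me3, 81.8% for H3K9/14ac and 95.2% for H3K27ac, and 0% lower in each. The median log2 difference of the members was 0.55, 0.70 and 0.66 in the order of these marks, beside 0.94, 0.95 and 1.06 over all promoters tested. Unadjusted limma p-values under 0.05 numbered 0 among the members for H3K4me3, beside 9 of 18 promoters tested. When the spread was estimated for each promoter alone, 1 member passed in H3K9/14ac (Smoc1) and none in H3K27ac. Over the table, 11 of 22 and 8 of 21 promoters tested passed in that setting.

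Smoc1, whose product also restrains bone morphogenetic protein signaling, had the largest log2 difference of the members in each mark. Its H3K4me3 scores were 8.20 and 11.67 in WT and 14.06 and 23.73 in cKO. The lower cKO score exceeded the higher WT score, yet with a log2 difference of 0.78 ± 0.43 (SE) the change missed the threshold (limma adjusted p = 0.117). Without cKO replicate 1 it was 1.12 and passed, and without cKO replicate 2 it was 0.44.

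H3K9/14ac at Smoc1 went from 2.68 and 3.35 in WT to 6.77 and 10.42 in cKO and rose by 1.06 ± 0.28 on the log2 scale (limma adjusted p = 0.00083). H3K27ac at Smoc1 went from 3.75 and 2.37 to 7.05 and 10.04 and rose by 1.06 ± 0.23 (limma adjusted p = 6.51e-05). In both acetylation marks the lower cKO library was above the higher WT library. Each of these calls held when any 1 library was left out, with log2 changes from 0.81 to 1.31 and from 0.85 to 1.26.

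Sfrp4 had a smaller log2 difference than Smoc1 in each mark. In H3K4me3, WT scores of 7.33 and 13.57 overlapped cKO scores of 11.60 and 20.95, and the log2 difference was 0.55 ± 0.43 (limma adjusted p = 0.273). That value was 0.18 without WT replicate 1 and 0.17 without cKO replicate 2, and 0.92 and 0.93 without the other library of each group. H3K9/14ac rose from 4.11 and 4.73 to 8.13 and 11.90, by 0.89 ± 0.28 on the log2 scale (limma adjusted p = 0.00399). H3K27ac rose from 5.30 and 3.43 to 8.71 and 9.64, by 0.83 ± 0.23 (limma adjusted p = 0.00109). The groups did not overlap in either acetylation mark. The H3K9/14ac call was lost without WT replicate 1 (log2 difference 0.82) and the H3K27ac call without WT replicate 2 (0.61).

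Timp2, the most strongly marked of the 4, had the smallest log2 differences of the 3 members tested in H3K4me3. H3K4me3 scored 13.57 and 27.82 in WT and 16.45 and 37.42 in cKO. The genotypes overlapped, and the log2 difference was 0.32 ± 0.43 (limma adjusted p = 0.477). Replicate 2 was above replicate 1 by 0.94 in WT and 1.10 in cKO on that scale, more than the genotypes differed. The difference changed sign to -0.145 without WT replicate 1 and to -0.22 without cKO replicate 2, and was 0.79 and 0.87 without the other library of each group.

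Acetylation at Timp2 gave differences of 0.51 and 0.50 in the 2 marks, of which 1 passed. H3K9/14ac scored 6.45 and 9.18 in WT and 9.32 and 14.96 in cKO. The cKO libraries were above the WT libraries by a narrow margin, with a log2 difference of 0.51 ± 0.28 (limma adjusted p = 0.0804). It was 0.80 without cKO replicate 1 and passed, 0.31 without WT replicate 1 and 0.22 without cKO replicate 2. H3K27ac scored 11.41 and 6.84 in WT and 11.32 and 15.81 in cKO, so that 1 WT library lay above 1 cKO library. The log2 change of 0.50 ± 0.23 passed (limma adjusted p = 0.0356), but the call was lost without WT replicate 2 (0.20), without cKO replicate 2 (0.29) and with a pseudocount of 1 (0.54). Without WT replicate 1 the change was 0.80.

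Hmcn2 did not pass in any mark. Its H3K4me3 scores were -0.10 and -0.50 in WT and -0.74 and -0.82 in cKO. Both cKO libraries were below both WT libraries, as at 4.35% of the 23 promoters, where Hmcn2 is the single case. These scores did not reach 1 in 2 libraries, the minimum for testing, so no main test was made, and without the filter the log2 difference was -0.47 ± 0.29 with limma adjusted p = 0.196. H3K9/14ac went from 1.37 and 1.14 to 1.44 and 2.01, a log2 difference of 0.19 ± 0.28 (limma adjusted p = 0.498). H3K27ac was 3.51 and 4.41 in WT and 5.42 and 6.39 in cKO, with no overlap, a log2 difference of 0.41 ± 0.23 and limma adjusted p = 0.0803.

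By library order alone, both cKO libraries were above both WT libraries at 1 of 4 members for H3K4me3, against 69.6% of promoters in the table. The count was 4 of 4 for H3K9/14ac and 3 of 4 for H3K27ac, where the table gives 95.7% in each.

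**Figure D2:**
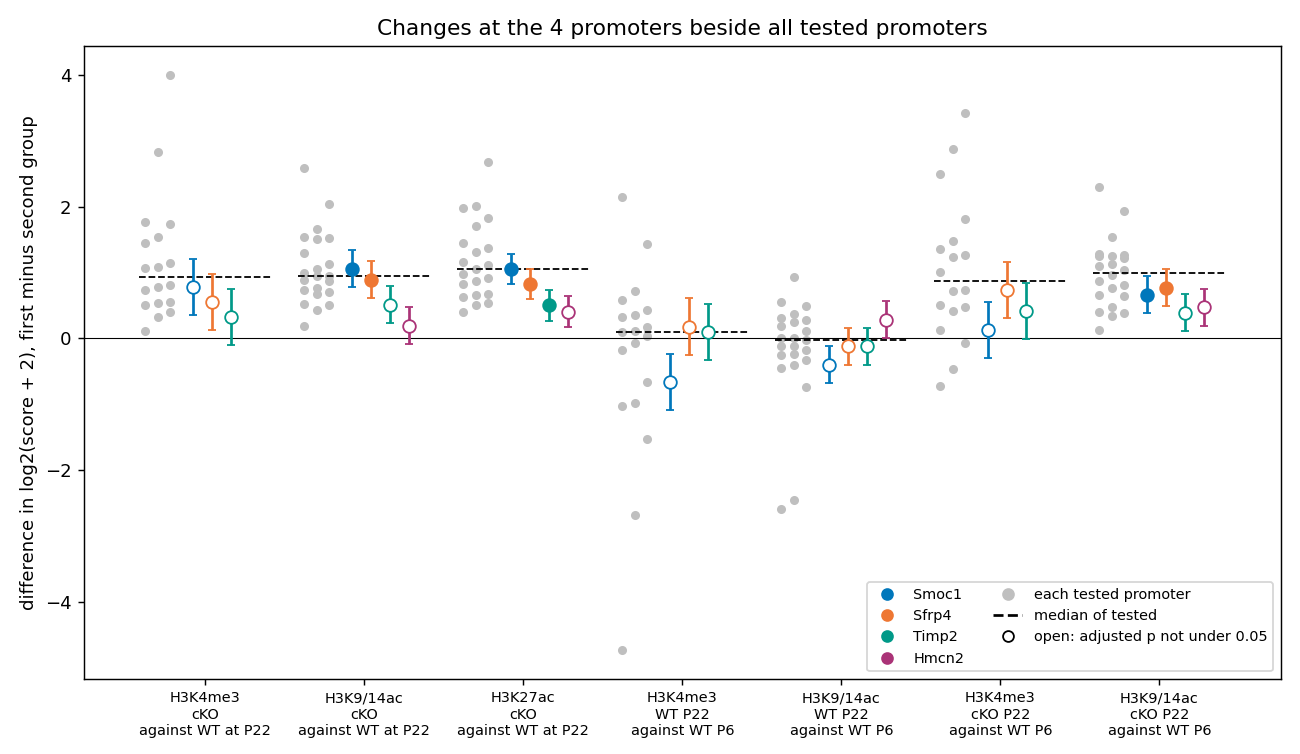
Difference in log2(score + 2), first minus second group (vertical axis), for 7 comparisons. Coloured points with SE bars are the members, filled where the limma adjusted p is under 0.05, grey points are all tested promoters and dashed lines their medians. Timp2 ranks 17 of 18, 20 of 22 and 20 of 21 by size of the cKO change in the 3 marks, and Hmcn2 ranks 22 of 22 and 21 of 21 in the acetylation marks.

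The log scale mattered most for the place of Timp2 in the table. In plain score units, H3K9/14ac was higher in cKO than in WT by 5.58 at Smoc1, 5.60 at Sfrp4 and 4.33 at Timp2, beside a median of 4.63 over 23 promoters. For H3K27ac the differences were 5.49, 4.81 and 4.44, with a median of 5.20, and for H3K4me3 they were 8.96, 5.83 and 6.24, with a median of 6.15. By that measure the 3 genes stood near the middle of the table, at ranks 9 to 16 of 23. Hmcn2 stayed at the low end on this scale too, with 0.47 in H3K9/14ac and 1.95 in H3K27ac, ranks 22 and 20.

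Most promoters of the table moved up together in the cKO, so the members were also set against the median promoter of each library. Relative to it, no member was called higher in the cKO in any mark, against 22.2% of promoters for H3K4me3, 13.6% for H3K9/14ac and 23.8% for H3K27ac. Timp2 was lower by 0.63 ± 0.11 on the log2 scale in H3K9/14ac (limma adjusted p = 0.0122) and by 0.67 ± 0.17 in H3K27ac (limma adjusted p = 0.0063), and Hmcn2 by 0.95 ± 0.21 (limma adjusted p = 0.0139) and 0.76 ± 0.16 (limma adjusted p = 0.00343). In the whole table, 31.8% of promoters were called lower on this footing for H3K9/14ac and 28.6% for H3K27ac. In H3K4me3 the share was 5.56% and no member was among them, with Timp2 at -0.61 ± 0.32 (limma adjusted p = 0.193) and Sfrp4 at -0.38 ± 0.13 (limma adjusted p = 0.0849).

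Smoc1 kept close to the median promoter. Its relative differences were -0.15 ± 0.10 in H3K4me3, -0.084 ± 0.11 in H3K9/14ac and -0.11 ± 0.15 in H3K27ac (limma adjusted p from 0.252 to 0.517). Sfrp4 stood between, with -0.26 ± 0.13 in H3K9/14ac and -0.34 ± 0.16 in H3K27ac (limma adjusted p = 0.124 and 0.0959). Library by library, Timp2 lay 1.01 and 1.04 above the median promoter for H3K9/14ac in WT and 0.38 and 0.40 above it in cKO. Hmcn2 lay at -0.32 and -0.79 in WT and at -1.34 and -1.68 in cKO for the same mark. In both genes the 2 genotypes did not overlap on this scale, and the share of all promoters without overlap on it was not counted.

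**Figure D3:**
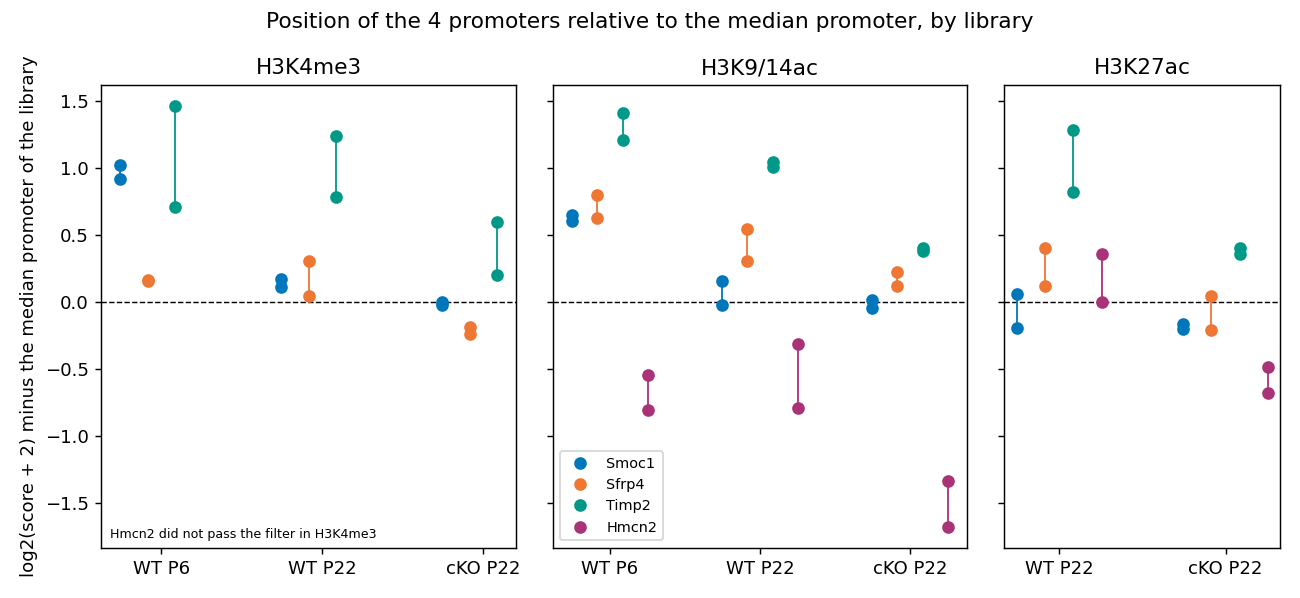
Log2(score + 2) of each member minus the median promoter of the same library (vertical axis), by group and mark. Each point is a library, lines join the 2 libraries of a group, and the dashed line is the median of the promoters that passed the filter. Timp2 lies from 0.78 to 1.28 above the line in the WT libraries at P22 over the 3 marks and from 0.20 to 0.59 in cKO.

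Between P6 and P22 in WT cerebellum, none of the members passed the test in either mark (limma, Benjamini-Hochberg adjusted). Unadjusted limma p-values under 0.05 numbered 0 among the members, beside 7 of 19 promoters for H3K4me3 and 4 of 23 for H3K9/14ac. For H3K4me3, the table had 10.5% of its promoters called higher at P22 and 15.8% called lower, and for H3K9/14ac 4.35% and 8.7%. Smoc1 was the member with the largest difference. H3K4me3 at Smoc1 scored 14.02 and 19.62 at P6 and 8.20 and 11.67 at P22, with no overlap, a log2 difference of -0.66 ± 0.43 and limma adjusted p = 0.273. H3K9/14ac at Smoc1 scored 4.24 and 4.94 at P6 and 2.68 and 3.35 at P22, again with no overlap and a log2 difference of -0.40 ± 0.28 (limma adjusted p = 0.472). A lower position of both P22 libraries was found at 25% of promoters in H3K4me3 and 37.5% in H3K9/14ac, and a higher one in H3K4me3 at 29.2%, with no member among the latter.

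Against the median promoter, Smoc1 fell with age by 0.83 ± 0.10 on the log2 scale in H3K4me3 (limma adjusted p = 0.00311) and by 0.56 ± 0.11 in H3K9/14ac (limma adjusted p = 0.00929). The shares of promoters called lower on that footing were 31.6% and 21.7%, and those called higher 21.1% and 4.35%. It lay 0.91 and 1.02 above the median promoter for H3K4me3 at P6, and 0.17 and 0.11 above it in WT at P22. No other member passed in this setting.

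The other 3 genes showed smaller differences with age. H3K4me3 at Sfrp4 was 7.48 and 9.94 at P6, inside the range of 7.33 to 13.57 at P22, and the log2 difference was 0.18 ± 0.43. Timp2, at 11.92 and 27.30 at P6, again had replicate 2 far above replicate 1, by 1.07 on the log2 scale, and its age difference was 0.09 ± 0.43. In H3K9/14ac, Sfrp4 scored 4.12 and 5.94 and Timp2 7.17 and 10.13 at P6, and both differed by -0.12 ± 0.28. Hmcn2 scored 0.73 and 0.62 at P6, below both P22 values of 1.37 and 1.14, a pattern found at 25% of promoters. Its log2 difference was 0.28 ± 0.28 (limma adjusted p = 0.61), and its H3K4me3 was -0.43 and -0.29 at P6.

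A last comparison set cKO at P22 against WT at P6, groups that differ in both age and genotype, whose parts cannot be told apart. It uses the same libraries as the comparisons above. H3K4me3 at Smoc1 was 14.06 and 23.73 in the P22 cKO and 14.02 and 19.62 in P6 WT, a log2 difference of 0.13 ± 0.43 (limma adjusted p = 0.811). None of the 3 members tested passed in H3K4me3 (limma), beside 50% of promoters called higher. In that mark, unadjusted limma p-values under 0.05 numbered 0 among the members, beside 9 of 18 promoters. By library order, 1 of 4 members (Sfrp4) had both cKO libraries above both P6 libraries, against 65.2% of promoters, and 1 (Hmcn2, at -0.74 and -0.82 against -0.43 and -0.29) had both below, against 8.7%. Relative to the median promoter, Smoc1 was lower by 0.98 ± 0.10 (limma adjusted p = 0.00201), as 27.8% of promoters were, and no member was among the 22.2% called higher. Sfrp4 had a log2 difference of 0.73 (limma adjusted p = 0.143), which without cKO replicate 1 was 1.11 and passed, and Timp2 one of 0.42.

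In H3K9/14ac, Smoc1 and Sfrp4 were higher in the P22 cKO than in P6 WT, as were 77.3% of promoters. The log2 changes were 0.67 ± 0.28 at Smoc1 (limma adjusted p = 0.0285) and 0.77 ± 0.28 at Sfrp4 (limma adjusted p = 0.0118). Both cKO libraries lay above both P6 libraries at 3 of 4 members, against 87% of promoters. Timp2 differed by 0.39 (limma adjusted p = 0.182) and Hmcn2 by 0.47 (limma adjusted p = 0.118). The Smoc1 call was lost without P6 replicate 1 (0.59), P6 replicate 2 (0.74) or cKO replicate 2 (0.41), and the Sfrp4 call without P6 replicate 1 (0.58) or cKO replicate 2 (0.54). Without cKO replicate 1 the log2 changes were 0.92 at Smoc1, 1.00 at Sfrp4, 0.69 at Timp2 and 0.58 at Hmcn2. Relative to the median promoter, all 4 were called lower in this mark, by 0.54 to 0.91 on the log2 scale, as were 40.9% of promoters, while 9.09% were called higher.

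Calls in 1 mark and not in another need a test of the difference itself. The interaction of mark and genotype was called at 0% of 22 promoters for each pair of marks (limma, Benjamini-Hochberg adjusted), with 1, 2 and 0 unadjusted p-values under 0.05. The cKO change of H3K4me3 minus that of H3K27ac was -0.27 ± 0.47 at Smoc1, -0.27 ± 0.48 at Sfrp4 and -0.18 ± 0.53 at Timp2 on the log2 scale. Hmcn2 failed the filter in H3K4me3 and entered this fit through H3K27ac alone. Its value followed the pseudocount, at -0.88 with 2, -2.11 with 1 and -0.15 with 20, so nothing is read from it. For H3K9/14ac against H3K27ac the members differed by -0.22 to 0.06, each with an SE of 0.38.

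Over all 16 libraries, the profiles of 3 members ran alike and Hmcn2 apart. After the median promoter of each library was subtracted, Pearson's r was 0.90 between Sfrp4 and Timp2, 0.79 between Smoc1 and Timp2 and 0.75 between Smoc1 and Sfrp4, while Hmcn2 had -0.28 with Smoc1, 0.13 with Sfrp4 and 0.03 with Timp2. Of the 22 other promoters with full values, those most like Smoc1 were Scn3b, a sodium channel subunit gene (r = 0.93), and the promoter listed as clcf (0.86). Sfrp4 was nearest to Pde1b, a phosphodiesterase gene (0.94), and to Timp2, and Timp2 was nearest to Pde1b (0.95) and to Sfrp4. Hmcn2 was nearest to Gnb3, a G protein subunit gene (0.91), and Casq1, the calsequestrin gene (0.84). Libraries of a mark share its level, so these coefficients hold differences between marks as well as within them. Within marks, the value for Hmcn2 and Casq1 was 0.40, and those of the other nearest promoters named ranged from 0.70 to 0.95. Smoc1 and Timp2 had 0.77 within marks. For Smoc1 with Sfrp4, and for Hmcn2 with the other members, no value within marks is given.

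Of 32 genes in 4 lists of related families (SPARC and SMOC proteins, hemicentins and fibulins, metalloproteinases with their inhibitors, and secreted Wnt antagonists), only these 4 are in the table, 1 from each list. No statement on these families can be made from the scores.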

How the data were processed

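Chromatin from mouse cerebella was immunoprecipitated and sequenced, per the labels' protocols. The submitters' processing notes name BWA and mm9 without a version or setting. The deposited table holds a score for each of 24 genes in 16 libraries, per the file headers; the scores go below 0, so they are not read counts, and no source used here gives their background or scaling. The 2 input libraries and the authors' mean curves were not used here.

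Groups and replicate numbers were taken from sample titles. Scores were tested with limma 3.58.1 (R 4.3.3) on log2(score + 2), 1 fit for all libraries of a mark, over promoters that reached a score of 1 in 2 or more libraries of that mark, with Benjamini-Hochberg adjustment and a threshold of 0.05. In the main fits of each mark the prior of limma was complete, which gives every promoter of a mark the same SE. SEs differed between promoters in the centred fits and in the interaction of H3K4me3 with H3K27ac. A common shift of a library makes p-values of the main fits too small, and fold changes on this scale understate changes of low promoters. Interactions of mark and genotype used the P22 libraries of 2 marks. An exact permutation test of 2 libraries against 2 cannot give less than p = 0.33, so none is given. The pipeline was run on data simulated with independent noise at each promoter. Those data held no common shift of a library, so they cannot show its effect on the p-values. Centred values subtract the median of the promoters passing the filter. Correlations of profiles instead subtract the median of all 23 promoters with values in all libraries. Nt5dc2, which has no cKO values, entered only the fits and the age comparison. Tables were handled with pandas 2.3.3 and numpy 2.4.6 under Python 3.11.15, and plots drawn with matplotlib 3.10.9.

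The members, lists and pseudocount were chosen with earlier results of these data known. Named were the members and, for each, the 2 promoters with the most similar profile. The identifiers beside the 4 gene names in the table belong to none of them in RefSeq and were not used, while symbols and chromosomes matched. Promoter windows are from RefSeq (GRCm38.p6), which holds 14 of the 24 genes. For 1 other promoter, part of all fits and counts, no value is reported here. Alternatives were pseudocounts of 1 and 20, no filter, a replicate block, fits of 2 groups and scores without a log. Further ones were the spread of each promoter alone, centred libraries and each library of the compared groups left out. A block of crossed replicate numbers in H3K27ac was added after seeing the data.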

Additional observations from a re-analysis of the deposited data

How the results depend on the processing

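Depth is unknown, each group has 2 libraries, and the zero of the score is not stated. Leaving out a library leaves its group with 1, which is then assumed to vary like the others. Values below are log2 differences unless they are counts, and the causes of the changes were not tested. Counts of promoters are over all tested promoters of the table. With the filter, these numbered 18, 22 and 21 between genotypes for H3K4me3, H3K9/14ac and H3K27ac. For H3K4me3 and H3K9/14ac they numbered 19 and 23 with age, and 18 and 22 for cKO at P22 against WT at P6.

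When 1 library at a time was left out, the count of members called at P22 between genotypes ran from 0 to 1 for H3K4me3 (0 with all libraries), 1 to 3 for H3K9/14ac (2) and 1 to 3 for H3K27ac (3), and the count of promoters from 5 to 12 (9), 10 to 20 (18) and 15 to 20 (20). With age it was 0 to 0 members in both marks, and 3 to 5 promoters (5) for H3K4me3 and 2 to 4 (3) for H3K9/14ac. For cKO at P22 against WT at P6 it was 0 to 1 members (0) and 4 to 11 promoters (9) for H3K4me3, and 0 to 4 members (2) and 11 to 19 promoters (17) for H3K9/14ac. Interactions gave 0 to 0 members. Signs turned in these runs for uncalled values: H3K4me3 between genotypes ran from -0.22 to 0.87 at Timp2, with age from -0.44 to 0.63 at Timp2 and -0.19 to 0.55 at Sfrp4, and for cKO against P6 from -0.21 to 0.47 at Smoc1 and -0.13 to 0.96 at Timp2. H3K9/14ac with age ran from -0.31 to 0.067 at Sfrp4 and -0.32 to 0.084 at Timp2. The interactions of H3K4me3 with H3K9/14ac ran from -0.62 to 0.063 at Smoc1, -0.71 to 0.041 at Sfrp4 and -0.74 to 0.36 at Timp2, those of H3K4me3 with H3K27ac from -0.61 to 0.065, -0.65 to 0.10 and -0.72 to 0.37, and those of H3K9/14ac with H3K27ac from -0.25 to 0.25, -0.17 to 0.29 and -0.29 to 0.31.

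Centring libraries on the median promoter gave, between genotypes, -0.15 at Smoc1, -0.38 at Sfrp4 and -0.61 at Timp2 in H3K4me3, -0.084, -0.26 and -0.63 with -0.95 at Hmcn2 in H3K9/14ac, and -0.11, -0.34, -0.67 and -0.76 in H3K27ac. Promoters called then numbered 5, 10 and 11. With age, Timp2 turned to -0.075 in H3K4me3, 1 member was called in each mark, and 10 and 6 promoters. For cKO against P6 the centred values were -0.98 at Smoc1, -0.37 at Sfrp4 and -0.69 at Timp2 in H3K4me3 (1 member and 9 promoters called). In H3K9/14ac they were -0.64, -0.54 and -0.91 in the same order, with -0.83 at Hmcn2 (4 members and 11 promoters called). Centring also called 1 member, Smoc1, in the interaction of H3K4me3 with H3K27ac (-0.57, limma adjusted p = 0.031).

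The spread of each promoter alone called 3 promoters in H3K4me3, 11 promoters and 1 member in H3K9/14ac, and 8 promoters and 0 members in H3K27ac between genotypes, 2 and 1 promoters with age, and for cKO against P6 0 promoters in H3K4me3 and 1 member and 11 promoters in H3K9/14ac. Scores without a log called 0 promoters in H3K4me3 between genotypes and 1 in each mark with age. For cKO against P6 they called 0 promoters in H3K4me3, and 1 member and 13 promoters in H3K9/14ac. A pseudocount of 20 called 5 promoters in H3K4me3 between genotypes and 2 with age, and turned Smoc1 to 0.0585 and 0.0624 in the interactions of H3K4me3 with H3K9/14ac and H3K27ac, and Timp2 to -0.0012 in that of the acetylation marks. A pseudocount of 1 turned Smoc1 to -0.0011 in the latter and called 1 member, Hmcn2, in each interaction with H3K4me3 (-1.90 and -2.11), where its scores are below 0 and under the filter, so this is no usable call. No filter and fits of 2 groups changed no count by over 1.5 times.

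Replicate numbers are shared between groups, but the labels state no shared batch, so they were not taken as pairs. Deviations of same-numbered libraries correlated across promoters at 0.40 to 0.74 for H3K4me3, 0.22 to 0.34 for H3K9/14ac and -0.29 for H3K27ac. Between genotypes, a block for the replicate number called 2 members (Smoc1, limma adjusted p = 0.00345, and Sfrp4, 0.0353) and 15 promoters in H3K4me3. It called 3 members and 21 promoters in H3K9/14ac, and 2 members and 18 promoters in H3K27ac, where Timp2 was lost. With age the block called 1 member (Smoc1) and 10 promoters in H3K4me3 and 7 promoters in H3K9/14ac. For cKO against P6 it called 1 member (Sfrp4) and 12 promoters in H3K4me3, and 4 members and 20 promoters in H3K9/14ac. Crossed numbers in H3K27ac, chosen after seeing the data, called 4 members and 21 promoters.

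Limma adjusted p-values between genotypes are given over the alternatives that kept all libraries. In H3K4me3 they ran from 0.00345 to 0.252 at Smoc1, 0.0353 to 0.382 at Sfrp4 and 0.191 to 0.729 at Timp2. In H3K9/14ac they ran from 7.3e-07 to 0.477 at Smoc1, 1.39e-05 to 0.124 at Sfrp4, 0.00633 to 0.222 at Timp2 and 0.0139 to 0.626 at Hmcn2. In H3K27ac the ranges were 3.88e-06 to 0.517, 7.3e-05 to 0.0986, 0.0062 to 0.305 and 0.00343 to 0.224 in the same order. At Hmcn2 the lowest values in both acetylation marks came from centred libraries, where its changes were -0.95 and -0.76. Centred libraries, with negative changes, also gave the highest values at Smoc1 in each mark and at Sfrp4 in H3K9/14ac. In H3K27ac the lowest values at Smoc1, Sfrp4 and Timp2 came from crossed replicate numbers, chosen after seeing the data.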
